A study of Mus musculus with 12 samples.

Results

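Stomach RNA of 4 Car9-/- mice and 3 wild-type mice was compared, on 7 of the 12 arrays of a study of carbonic anhydrase IX (CA IX) deficiency in the mouse stomach. These arrays, of Car9-/- mice 2 to 5 and wild-type mice 1 to 3, were picked by their own signals. Each carried transcripts of the squamous forestomach and log2 signals below 9 for the acinar pancreas genes Ctrb1 and Cpa1. The other 5 arrays were those of Car9-/- mice 1 and 6 and wild-type mice 4 to 6. All mice were C57BL/6, and the Car9-/- mice carried a targeted disruption of Car9, while the wild-type mice carried none. Car9-/- mouse 2 was a male of 10 months, mouse 3 a female of 12 months, mouse 4 a male of 12 months and mouse 5 a female of 10 months. Wild-type mouse 1 was a male of 10 months, mouse 2 a male of 12 months and mouse 3 a female of 8 months. Of the other 5, Car9-/- mouse 1 was a male of 10 months, wild-type mouse 4 a male of 12 months, and Car9-/- mouse 6 and wild-type mice 5 and 6 were females of 12 months. The study describes its specimens as taken from the body of the stomach. Total RNA of the specimen of each mouse went to 1 Illumina Mouse-6 array with 46643 probes. Whether mice of a genotype shared litters is not given in the sources used here.

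CA IX is a membrane-bound enzyme that converts carbon dioxide and water to bicarbonate and a proton on the outer face of the cell. In most tissues its gene is silent until oxygen falls, but the gastric mucosa expresses it constantly, on the basolateral face of its epithelial cells. The mouse stomach has a squamous forestomach, lined like the oesophagus, and a glandular part with mucous pit cells, acid-secreting parietal cells and pepsinogen-secreting chief cells, and the pancreas and fat lie against its outer wall. A piece of stomach can therefore carry different amounts of these tissues from mouse to mouse.

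The squamous signals by which the arrays were picked are given first, as a description. Krt14, a keratin of basal squamous cells, had log2 signals of 11.30, 13.48, 13.41 and 12.23 in Car9-/- mice 2 to 5, and 13.63, 13.66 and 12.71 in wild-type mice 1 to 3. It was at 6.02 to 6.43 on the other 5 arrays, where it was not detected. Squamous content was not equal among the 7. The mean of 50 genes of differentiated squamous epithelium, each taken relative to its mean over 12 arrays, was 0.32, 2.65, 2.45 and 1.45 in Car9-/- mice and 0.42, 2.69 and 0.78 in wild-type mice, so that each genotype held low and high samples. The mean of 8 genes of basal squamous epithelium was 0.17 to 1.37 in Car9-/- mice and 1.75, 1.79 and 1.38 in wild-type mice. For Krt15, another basal keratin, the values were 7.21, 7.91, 7.22 and 7.56 in Car9-/- mice against 8.79, 8.92 and 9.24 in wild-type mice, with no overlap. Both lists helped to choose the arrays and are given without a test, although their probes stay in the fit over all probes below.

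The same arrays were not free of transcripts of exocrine pancreas genes. Ctrb1, a chymotrypsinogen, was at 6.60 to 8.62 in Car9-/- mice and 6.79 to 7.37 in wild-type mice, and Cpa1, a carboxypeptidase, was detected on 1 of the 7 arrays. Amy2a5, an amylase of a family of near-identical copies, was bright nevertheless: 12.65, 11.10, 10.36 and 10.58 in Car9-/- mice, and 15.16, 15.22 and 13.78 in wild-type mice. The trypsin gene Try4 gave 8.20, 10.21, 8.48 and 10.56 in Car9-/- mice, and 13.11, 12.67 and 11.63 in wild-type mice. Both genes were lower in every Car9-/- mouse. The mean of the 19 tested exocrine pancreas genes was -1.16 to -0.51 in Car9-/- mice, -0.33 to -0.01 in wild-type mice and 2.61 and 2.29 in wild-type mice 4 and 6, which the choice left out. Reg1, another gene of that list, went the other way, with 9.21 to 10.19 in Car9-/- mice and 7.69 to 8.01 in wild-type mice. The level of the exocrine pancreas list did not overlap between genotypes, so it cannot be told apart from genotype in these 7 mice. Gene by gene, 1 of the 19 was higher and 6 lower without overlap (6.49% and 8.76% of all probes). The others overlapped, Ctrb1 among them. In wild-type mouse 4, Amy2a5 was at 15.10 and Ctrb1 at 14.99. In wild-type mice 1 to 3, Amy2a5 was bright while Ctrb1 was low. Which cells gave the Amy2a5 and Try4 signals was not tested.

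**Figure D1:**
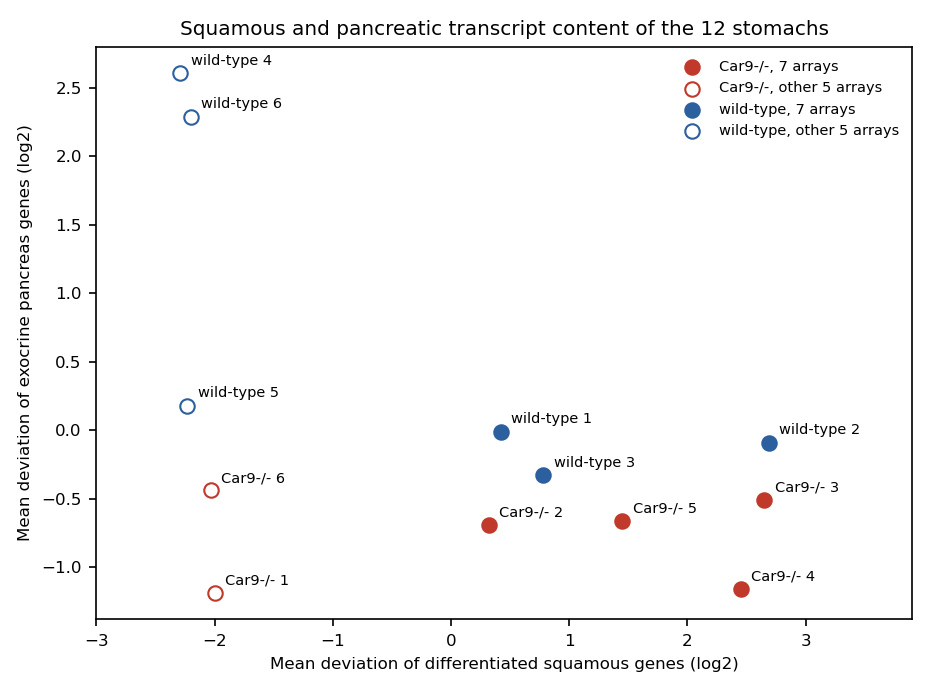
Mean deviation (log2) of 19 exocrine pancreas genes, on the vertical axis, against that of 50 differentiated squamous genes, on the horizontal axis, for each of 12 arrays. Filled points are the 7 arrays described here and open points the other 5. The 7 lie right of 0, and among them the 4 Car9-/- points (at most -0.51) sit below the 3 wild-type points (at least -0.33).

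Median signals were 85.1 to 101.4 on the Car9-/- arrays and 87.9 to 89.6 on the wild-type arrays, 18467 to 20276 probes were detected on each, and pairs of the 7 arrays correlated at 0.956 to 0.991. One array stood apart. At 1656 of the 19902 tested probes (8.32%) a single Car9-/- array lay far from the other 3, and in 1164 of these (70.3%) it was that of Car9-/- mouse 5. Results are therefore also given without this mouse where it matters. The mouse was singled out from these same signals, so leaving it out narrows the spread of the Car9-/- mice by choice. Calls made only without it are given as a description and are not further support. Glandular markers were bright on all 7 arrays: the proton pump gene Atp4a was at 14.68 to 14.87 in Car9-/- mice and 14.85 to 15.04 in wild-type mice, and the pepsinogen gene Pgc at 14.91 to 15.13 in Car9-/- mice and 14.97 to 15.07 in wild-type mice.

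The targeted gene separated the genotypes. Car9 had log2 signals of 7.96, 7.74, 8.14 and 8.06 in Car9-/- mice and 9.79, 9.59 and 9.69 in wild-type mice at the brighter of its 2 tested probes. No Car9-/- mouse reached the lowest wild-type mouse. The log2 difference was -1.72 (standard error 0.12, adjusted p = 0.00479 by limma), a 3.29-fold decrease. The dimmer probe gave 8.19, 8.11, 8.12 and 7.46 in Car9-/- mice and 9.37, 9.36 and 9.16 in wild-type mice, also without overlap. Its log2 difference was -1.32 (adjusted p = 0.0512 from limma, standard error 0.18). Both probes remained detected on all 4 Car9-/- arrays, and where they lie relative to the disrupted part of the gene is not given in the sources used here. On the other 5 arrays the brighter probe differed by -1.64 (standard error 0.12).

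The sequences before the start of Car9 and of Cym and Slc9a3, the named genes with the largest rise, are shown to set the disrupted gene beside them. Each line holds the 250 bases before the annotated start, from RefSeq on GRCm38.p6, read 5′ to 3′ on the strand of the gene. Capitals mark the core of the hypoxia response element, searched as ACGTG and GCGTG on both strands (CACGT and CACGC on the other strand).
Car9, chr4:43506776-43507025, plus strand: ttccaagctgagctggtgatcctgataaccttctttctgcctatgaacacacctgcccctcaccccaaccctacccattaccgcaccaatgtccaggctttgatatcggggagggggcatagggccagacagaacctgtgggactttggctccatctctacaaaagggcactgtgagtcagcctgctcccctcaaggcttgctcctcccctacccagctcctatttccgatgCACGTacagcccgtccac
Cym, chr3:107221733-107221982, minus strand: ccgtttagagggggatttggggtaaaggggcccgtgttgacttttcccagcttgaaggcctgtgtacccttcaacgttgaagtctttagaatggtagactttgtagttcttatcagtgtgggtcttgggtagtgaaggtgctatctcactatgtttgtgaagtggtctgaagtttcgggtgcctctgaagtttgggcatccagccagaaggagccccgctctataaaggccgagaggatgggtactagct
Slc9a3, chr13:74121163-74121412, plus strand: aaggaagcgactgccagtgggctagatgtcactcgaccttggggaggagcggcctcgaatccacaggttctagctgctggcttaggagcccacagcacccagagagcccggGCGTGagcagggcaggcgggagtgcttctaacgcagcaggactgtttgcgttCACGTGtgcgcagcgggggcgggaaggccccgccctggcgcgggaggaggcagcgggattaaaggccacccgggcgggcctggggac
Car9 held 1 match, which began 18 bases before the start, Cym none and Slc9a3 3, of which a pair overlap. Of 32851 such windows, 38.6% held a match, so a match is common and is given as a description only.

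After adjustment the genotypes differed at few probes. At an adjusted p under 0.05 from limma, 22 probes were higher (0.111% of 19902 tested) and 11 lower (0.0553%) in Car9-/- mice. Of the 33, 30 carried a gene name. Krt15 and Reg1 belong to the lists that chose the arrays, so they are counted among the 33 but their calls are not read as results. At an unadjusted p under 0.05, 1521 probes were higher (7.64%) and 1732 lower (8.7%). The genotypes did not overlap, with Car9-/- mice above wild-type mice, at 1292 probes (6.49%), and with Car9-/- mice below at 1743 (8.76%). Scaling each array to its median, which moved the median difference of all probes to 0.11 from -0.005, left 7 higher and 2 lower probes. With sex as a covariate 2 higher and 2 lower probes passed, and with the exocrine pancreas level 1 higher and 0 lower. The counts also rested on single mice. Without Car9-/- mouse 5 there were 729 higher (3.66%) and 619 lower (3.11%) probes, including all 33, and without wild-type mouse 3 there were 37 and 13. Without Car9-/- mouse 2 the counts were 11 and 3, without Car9-/- mouse 3 they were 1 and 1, and they were 2 and 1 when Car9-/- mouse 4, wild-type mouse 1 or wild-type mouse 2 was omitted. The 33 probes kept their direction in each of these fits.

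**Figure D2:**
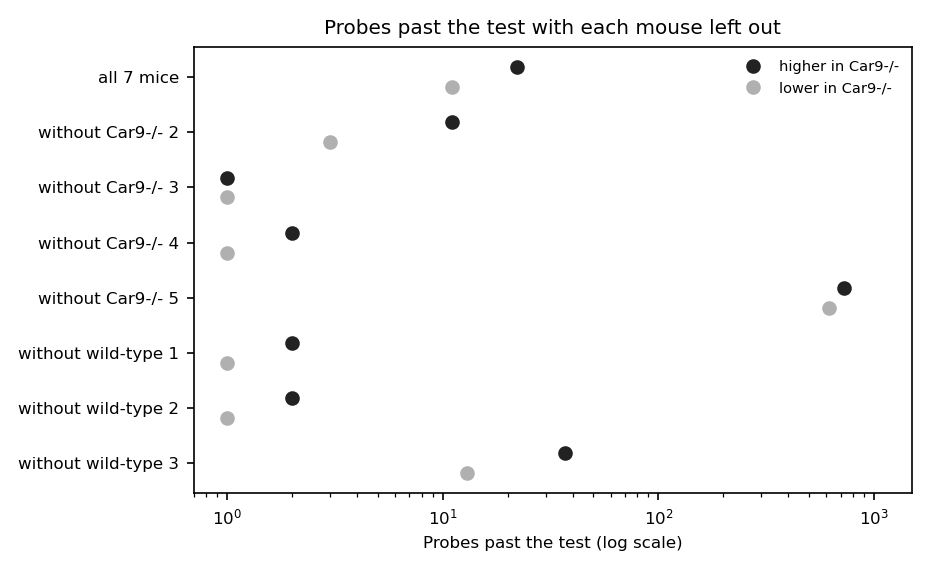
Number of probes past limma's test (log axis) that were higher (black) or lower (grey) in Car9-/- mice, for all 7 mice and with each mouse left out. The counts are 22 and 11 with all mice, reach 729 and 619 without Car9-/- mouse 5 and are 1 and 1 without Car9-/- mouse 3.

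Cym and Slc9a3 had the largest rises among the named genes. Cym encodes chymosin, the milk-clotting protease of the stomach. Its log2 signals were 9.63, 10.23, 11.22 and 10.58 in Car9-/- mice and 7.55, 7.05 and 6.64 in wild-type mice, of which 2 were above detection. The lowest Car9-/- mouse was above the highest wild-type mouse, and the difference was 3.34 (standard error 0.37, adjusted p = 0.0257 from limma), or 10.1-fold. Slc9a3 encodes NHE3, a sodium and proton exchanger best known from the absorptive brush border of intestine and kidney. It gave 10.18, 9.60, 9.88 and 9.33 in Car9-/- mice and 6.54, 6.70 and 7.42 in wild-type mice. Only 2 of the wild-type mice were above detection. Again the genotypes did not overlap, with a difference of 2.86 (standard error 0.26, adjusted p = 0.0179 from limma). Cym kept its call in 12 and Slc9a3 in 14 of 22 alternative settings. The call of Cym was lost when any one of Car9-/- mice 3 and 4 and the 3 wild-type mice was omitted, with adjusted p-values of 0.0504 to 0.152 in limma.

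Enzymes of lipid, retinoid and nucleotide metabolism were among the other genes that rose. Aldh1a3, which oxidizes retinaldehyde to retinoic acid, gave 8.81, 9.36, 9.64 and 8.94 in Car9-/- mice and 7.34, 7.36 and 6.85 in wild-type mice. The genotypes lay more than 1 log2 unit apart at their nearest values, and the difference was 2.00 (standard error 0.22, adjusted p = 0.0259 from limma). Of the 10 tested genes of the retinoic acid pathway, 5 had a positive and 5 a negative difference, and Aldh1a3 alone passed (0.111% of all probes were higher). Aldh1a1, with the same enzymatic role, had a difference of -0.69 (adjusted p = 0.0839 from limma). Without Car9-/- mouse 5, 2 of the 10 passed higher and 1 lower, where 3.66% and 3.11% of all probes did. The lower one was Aldh1a1 (-0.76, adjusted p = 0.0203 in limma). Cyp4f18, a cytochrome P450 that hydroxylates fatty acids, was higher by 1.33 (standard error 0.17), Agmo, which cleaves ether lipids, by 1.10 (standard error 0.12) and Gda, a guanine deaminase, by 0.93 (standard error 0.11). Their adjusted p-values lay between 0.0257 and 0.0388.

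Genes of matrix turnover, lysosome and signalling also rose. Mmp10, a matrix metalloproteinase, had 8.59, 8.65, 9.37 and 8.41 in Car9-/- mice against 6.86 to 6.94 in wild-type mice, a difference of 1.86 (standard error 0.21, adjusted p = 0.0299 from limma). Timp1, an inhibitor of this enzyme family, was at 8.39 to 8.61 in Car9-/- mice and 7.71 to 7.85 in wild-type mice and differed by 0.72 (standard error 0.09). Ctsh, the lysosomal protease cathepsin H, was higher by 0.88 (standard error 0.12). Ffar4, a receptor for long-chain fatty acids, gave 9.30, 9.81, 9.76 and 9.50 in Car9-/- mice and 7.67, 7.72 and 8.26 in wild-type mice. All 4 Car9-/- values were again the higher ones, with a difference of 1.71 (standard error 0.18, adjusted p = 0.0257 from limma). Cxcl17, a chemokine of mucosal surfaces, was at 11.76 to 11.97 in Car9-/- mice and 10.61 to 10.82 in wild-type mice, a difference of 1.10 (standard error 0.10, adjusted p = 0.0179 by limma). Hamp, the iron hormone hepcidin, was detected on all 4 Car9-/- arrays at 7.67 to 8.22 and was not above background in any of the 3 wild-type mice, at 6.30 to 6.42. It was at least 2.48-fold higher (adjusted p = 0.0196 from limma), where the bound sets the Car9-/- mean against the lowest detected signal of each wild-type array, since that is above the signal of Hamp there. A near-identical copy, Hamp2, may share its probe.

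The remaining genes that rose were of several kinds. Both probes of C4a, a complement component, passed, with differences of 1.49 and 1.44 (standard error 0.19 each), and a near-identical paralogue, C4b, cannot be told apart from it here. Sectm1b rose by 0.98 (standard error 0.10), 9130204L05Rik by 2.23 (standard error 0.22), and Pclaf, a partner of the replication clamp PCNA, by 0.98 (standard error 0.12). Pclaf gave 8.96, 8.63, 8.96 and 8.83 in Car9-/- mice and 7.95, 7.73 and 7.93 in wild-type mice. One probe of Tpm3, a tropomyosin, rose by 0.94 (standard error 0.12), while its other 5 tested probes lay between -0.051 and 0.78 and did not pass. There were also 3 probes without a gene name, all higher in Car9-/- mice. The largest difference was at a probe with log2 signals of 12.46, 12.37, 12.21 and 12.72 in Car9-/- mice and no detected signal in wild-type mice (6.12, 6.32 and 6.05), which makes it higher by at least 56.3-fold. Among the 33 probes only this one passed in all 22 alternative settings.

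**Figure D3:**
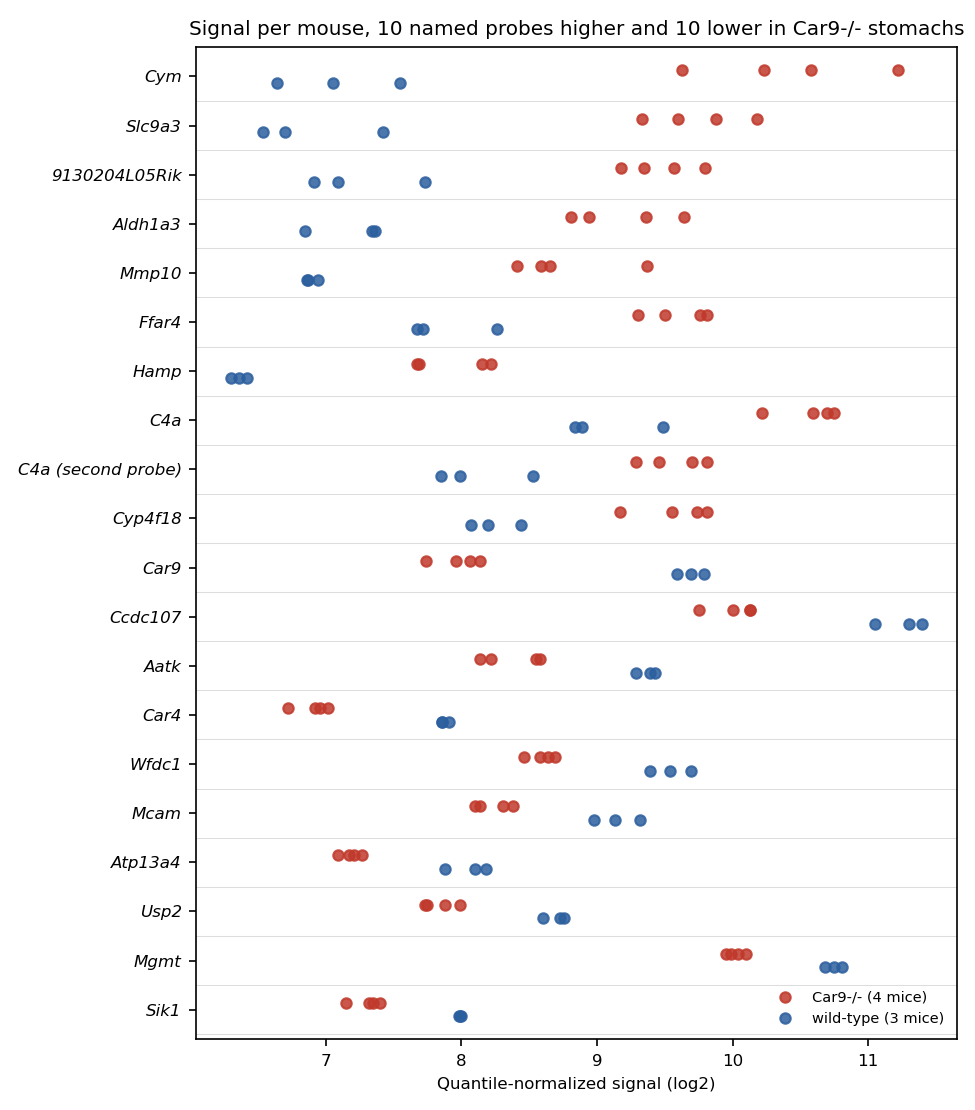
Quantile-normalized log2 signal (horizontal axis) of each of the 4 Car9-/- mice (red, upper row) and 3 wild-type mice (blue, lower row) at the 10 named probes with the largest rise and the 10 with the largest fall. C4a appears with both of its probes. No gene shows an overlap between the genotypes.

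The probes that fell numbered 11, of Car9, Krt15 (of a list that chose the arrays) and 9 other genes. Car4, which encodes another membrane-bound carbonic anhydrase, had 7.02, 6.96, 6.72 and 6.92 in Car9-/- mice and 7.86, 7.91 and 7.86 in wild-type mice. The wild-type mice were nearly identical, and the difference was -0.97 (standard error 0.10, adjusted p = 0.0196 from limma). Ccdc107, a coiled-coil gene, had 10.13, 10.00, 9.75 and 10.13 in Car9-/- mice and 11.30, 11.05 and 11.40 in wild-type mice, a difference of -1.25 (standard error 0.13, adjusted p = 0.0257 from limma). Aatk, a kinase, fell by 1.00 (standard error 0.13), Wfdc1, a secreted inhibitor-like protein, by 0.95 (0.11) and Mcam, an adhesion molecule of endothelium and smooth muscle, by 0.91 (0.12). Atp13a4, a transport ATPase, fell by 0.86 (0.10), Usp2, a deubiquitinase, by 0.86 (0.10), Mgmt, a DNA repair protein, by 0.73 (0.09) and Sik1, a kinase, by 0.68 (0.09). Usp2 was at 7.73 to 7.99 in Car9-/- mice against 8.60 to 8.76 in wild-type mice, and Sik1 averaged 7.31 in Car9-/- mice against 7.99 in wild-type mice. A second probe of Usp2 (-0.40) and of Ccdc107 (-0.72), and 2 others of Wfdc1 (-0.90 and -0.87), went the same way without passing.

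Ccdc107 lies on chromosome 4, 2 genes from Car9. Among the 15 protein-coding genes on each side of Car9 in the RefSeq order, 19 had a tested probe. Of their 22 probes, 6 had an unadjusted p under 0.05 (7.64% of all tested probes were higher and 8.7% lower at that level), 6 did not overlap between genotypes (6.49% higher and 8.76% lower over all) and 1, of Ccdc107, passed the adjusted test, lower (0.0553% over all). Tpm2, a muscle tropomyosin and the next gene on the other side, was at 13.40, 13.47, 13.38 and 13.21 in Car9-/- mice and 14.50, 14.05 and 14.19 in wild-type mice, with a difference of -0.88 (standard error 0.13, adjusted p = 0.0565 from limma). It passed without Car9-/- mouse 5 (-0.83, adjusted p = 0.0212 in limma). It is also one of the smooth muscle genes. Arhgef39, between Ccdc107 and Car9, had a difference of -0.25 (adjusted p = 0.631). Whether the altered locus bears on its neighbours was not tested.

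On the other 5 arrays, which had lower levels of the squamous lists and included 2 wild-type stomachs rich in pancreas, most of these differences had the same sign. Of the 33 probes, 31 (93.9%) had the same sign there, against 73.2% of all tested probes. The genotypes did not overlap in the same direction at 24 of the 33 (72.7%) and in the opposite direction at 0, where 38.8% of all tested probes did not overlap in either direction. An unadjusted p under 0.05 in the same direction was found for 23 of the 33, against 19% of all tested probes in either direction. After adjustment, limma called 7 probes higher and 1 lower over these 5 arrays (0.0402%), and 4 of the 33 were among them. Among the named probes with the largest rises, the differences in the 7 and in the other 5 were 3.34 and 3.31 for Cym, 2.86 and 2.96 for Slc9a3, 2.23 and 1.83 for 9130204L05Rik, and 2.00 and 1.81 for Aldh1a3. They were 1.86 and 1.46 for Mmp10, 1.71 and 1.35 for Ffar4, 1.57 and 1.08 for Hamp, 1.33 and 0.92 for Cyp4f18, 1.10 and 1.04 for Cxcl17, and 1.10 and 0.51 for Agmo. One of the probes without a gene name had 2.10 and 0.85. Most of these values were smaller in the other 5, but the probes were picked by their size in the 7, which favours such a drop. The exceptions in sign were Krt15 (0.09 in the other 5) and Reg1 (-1.52 in the other 5), both of the choosing lists. C4a was higher by 0.44 and 0.33 and Gda by 0.17, and these genes overlapped between genotypes in the other 5.

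No probe passed an interaction test of the 7 against the other 5 arrays (limma, 0%), and 514 of 19902 had an unadjusted p under 0.05. Of the 33 probes, 10 had an unadjusted interaction p under 0.05, Krt15 and Reg1 of the choosing lists among them. The 33 were picked by their difference in the 7 arrays, which enters this contrast. Their count is therefore favoured by the choice and is given as a description only. Without wild-type mouse 5, 7 probes passed this interaction test, and without Car9-/- mouse 6, 1 probe. Over all 12 arrays 2202 probes passed, 29 of the 33 among them, but these arrays include the 7.

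**Figure D4:**
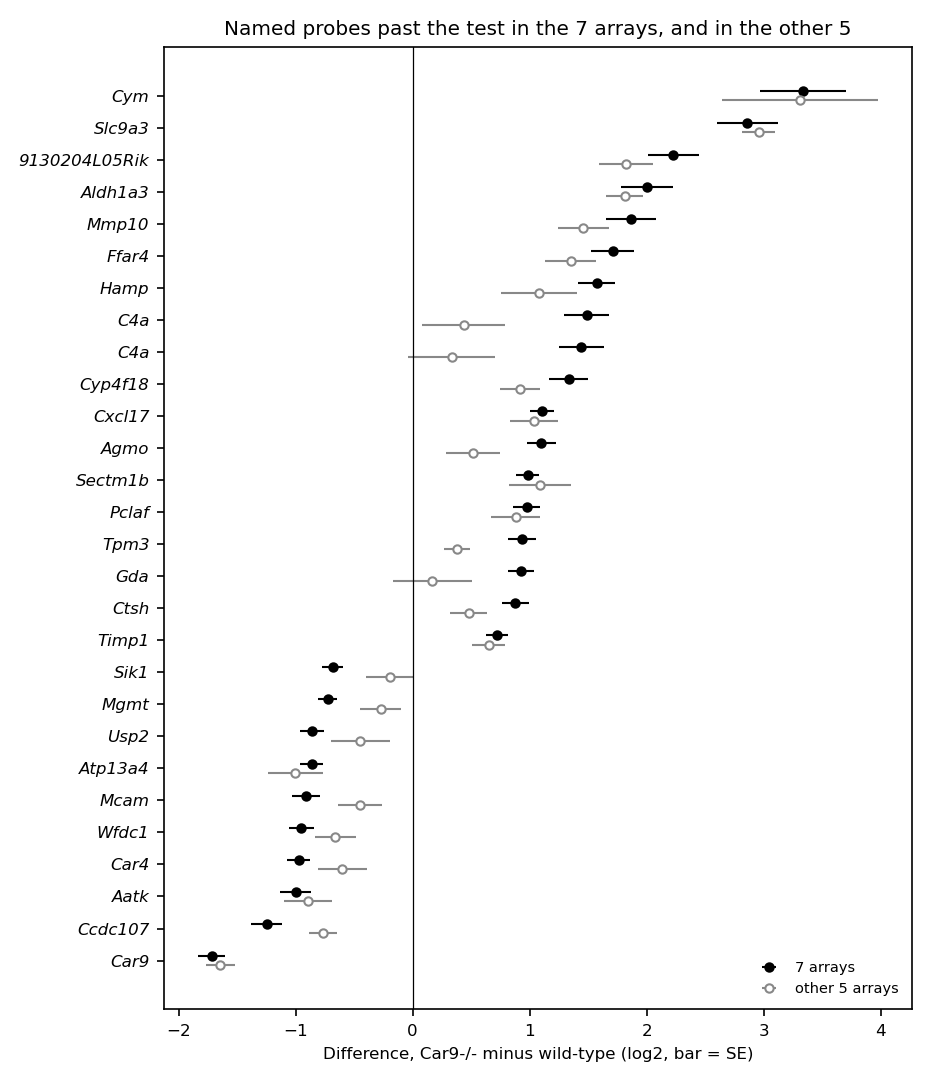
Log2 difference, Car9-/- minus wild-type, with its standard error, for each named probe past the test in the 7 arrays (filled) and the same probe in the other 5 arrays (open), sorted by the difference in the 7. Krt15 and Reg1 are left out. All open points have the sign of the filled ones, and C4a, Gda and Sik1 show the smallest open values relative to the filled.

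Of 40 tested genes that the study listed from all 12 mice, 3 passed, all higher (Cym, Slc9a3 and 9130204L05Rik), against 0.111% of all probes. A further count, of genes without overlap, was 8 in the higher direction (6.49% of all probes) and 9 in the lower (8.76%). In the fit without Car9-/- mouse 5, 9 passed higher and 8 lower, where 3.66% and 3.11% of all probes did. The study chose these genes on samples that include the 7, so their direction here is not independent evidence. Dmbt1, a mucosal defence glycoprotein, had 13.56, 13.55, 13.50 and 13.64 in Car9-/- mice and 9.86, 10.17 and 12.72 in wild-type mice, and wild-type mouse 3 lay apart from the other wild-type mice. Its difference of 2.65 had a standard error of 0.61 (adjusted p = 0.108 from limma). Il1rl1, the gene of a membrane and a soluble receptor of interleukin-33, gave 9.18, 8.98, 10.30 and 9.13 in Car9-/- mice and 7.60, 6.80 and 7.38 in wild-type mice, and a difference of 2.13 (standard error 0.34, adjusted p = 0.0665). The study lists it under the transcript variant that codes the soluble form. Tm4sf5, a membrane protein of the tetraspan kind, had a difference of 2.17 (standard error 0.34, adjusted p = 0.0674) and the lung lectin Sftpd one of 1.48 (standard error 0.23, adjusted p = 0.0647). Without Car9-/- mouse 5, Il1rl1 (adjusted p = 0.0223), Tm4sf5 (0.0266) and Sftpd (0.0233) passed and Dmbt1 (0.0606) did not.

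Egf, the epidermal growth factor gene, had 8.73, 8.16, 7.05 and 8.01 in Car9-/- mice and 10.55, 10.16 and 9.30 in wild-type mice, with no overlap and a difference of -2.02 (standard error 0.42, adjusted p = 0.0891 from limma). A second Egf probe differed by -0.008. Blm, a DNA helicase, gave 7.81, 8.16, 8.09 and 10.14 in Car9-/- mice and 10.92, 11.56 and 10.85 in wild-type mice. Car9-/- mouse 5 stood apart from the other 3, and the difference of -2.56 (standard error 0.53, adjusted p = 0.0891) became -3.09 (adjusted p = 0.00245) without it. The amino acid transporter gene Slc38a5 had a difference of -1.92 (standard error 0.39, adjusted p = 0.0891), Gdf9, a growth factor of oocytes, one of -2.60 (adjusted p = 0.152) and Bhlha15, a transcription factor of secretory cells, one of -1.45 (adjusted p = 0.255) at one probe and of -1.11 and -0.023 at the others. Pkp4, a junction protein, differed by 1.60 at the probe the study listed (adjusted p = 0.189), and its other 3 tested probes lay between -0.28 and 0.05. Each of these genes passed in limma without Car9-/- mouse 5: Egf (-2.02, adjusted p = 0.0455), Slc38a5 (-2.16, adjusted p = 0.0228), Gdf9 (-3.12, adjusted p = 0.0309), Bhlha15 (-1.93, adjusted p = 0.0302) and Pkp4 (1.98, adjusted p = 0.0332). For Pkp4, however, the study's own quantitative PCR on the RNA of all 12 mice found no change. Pkp4 was the only gene for which the study reported a discrepancy between that PCR and its arrays. The other genes it checked were reported as concordant over the 12 mice, among them Cym, Slc9a3, Dmbt1, Il1rl1, Sftpd and Egf.

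Fat-cell genes of the study's tables showed little difference in the 7 mice. Adipoq, which encodes adiponectin, was at 7.90, 7.06, 6.63 and 6.82 in Car9-/- mice and 6.54, 6.54 and 9.26 in wild-type mice. Wild-type mouse 3 alone was high, and the difference was -0.34 (standard error 0.66, adjusted p = 0.841), against -3.44 in the other 5 arrays. The difference was -0.29 for Car3, a carbonic anhydrase of fat and muscle, against -3.41 in the other 5, and -0.50 for the adipsin gene Cfd, against -4.39. Without wild-type mouse 3 these differences were 0.57, 0.46 and 1.04 in the 7. Il33, whose product binds the membrane form of the Il1rl1 protein, differed by 0.16 in the 7 and by 1.94 in the other 5. None of these contrasts between sets of arrays passed the interaction test after adjustment.

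Cell cycle genes had mostly positive differences, and none passed the adjusted test. Of 23 tested genes, 22 had a positive difference, with a median of 0.53 against -0.005 over all tested probes, 18 had an unadjusted p under 0.05 (7.64% of all probes in that direction) and 14 did not overlap (6.49%). Mki67, the proliferation marker, was at 8.94 to 9.77 in Car9-/- mice and 7.55 to 8.30 in wild-type mice. At the brighter probe it differed by 1.33 (standard error 0.26, adjusted p = 0.0887 from limma) and at the other by -0.061. Top2a, a topoisomerase of dividing cells, differed by 0.79 (standard error 0.18, adjusted p = 0.101). The mean level of the list was 0.09 to 0.44 in Car9-/- mice and -0.43 to -0.12 in wild-type mice. Of the 23, 10 passed without Car9-/- mouse 5, all higher (3.66% of all probes in that direction), among them Mki67 (adjusted p = 0.0281) and Top2a (adjusted p = 0.0219 in limma). In bulk tissue, fewer cells of a type and less RNA per cell cannot be told apart, here and for all lists below.

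Genes of the muscle wall and its nerves had negative differences. All 12 tested smooth muscle genes had a negative difference (median -0.74), 9 with an unadjusted p under 0.05 (8.7% of all probes in that direction) and 7 without overlap (8.76%), and none passed alone. Of the 12, 3 passed without Car9-/- mouse 5, all lower (3.11% of all probes in that direction). Acta2, the smooth muscle actin, was at 14.80 to 15.02 in Car9-/- mice and 15.03 to 15.13 in wild-type mice, a small difference of -0.18 for a probe near the top of the range, and its 3 dimmer probes gave -0.45, -1.10 and -1.26 without passing. Actg2, the enteric smooth muscle actin, differed by -0.40 (standard error 0.14, adjusted p = 0.216). All 8 tested genes of enteric neurons and glia were negative (median -0.56), 7 with an unadjusted p under 0.05 and 6 without overlap, and without Car9-/- mouse 5, 3 of them passed. Uchl1, a neuronal ubiquitin hydrolase, gave 7.60, 7.93, 7.35 and 7.75 in Car9-/- mice and 8.53, 8.29 and 8.23 in wild-type mice (adjusted p = 0.0979, or 0.0441 in limma without Car9-/- mouse 5), while the neuronal RNA-binding protein gene Elavl4 differed by -0.07. The smooth muscle level was -0.29 to 0.04 in Car9-/- mice and 0.26 to 0.74 in wild-type mice, and the squamous basal level moved the same way, as given above. All 9 endothelial genes were negative too (median -0.36, 4 with an unadjusted p under 0.05), and 1 of them passed without Car9-/- mouse 5.

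**Figure D5:**
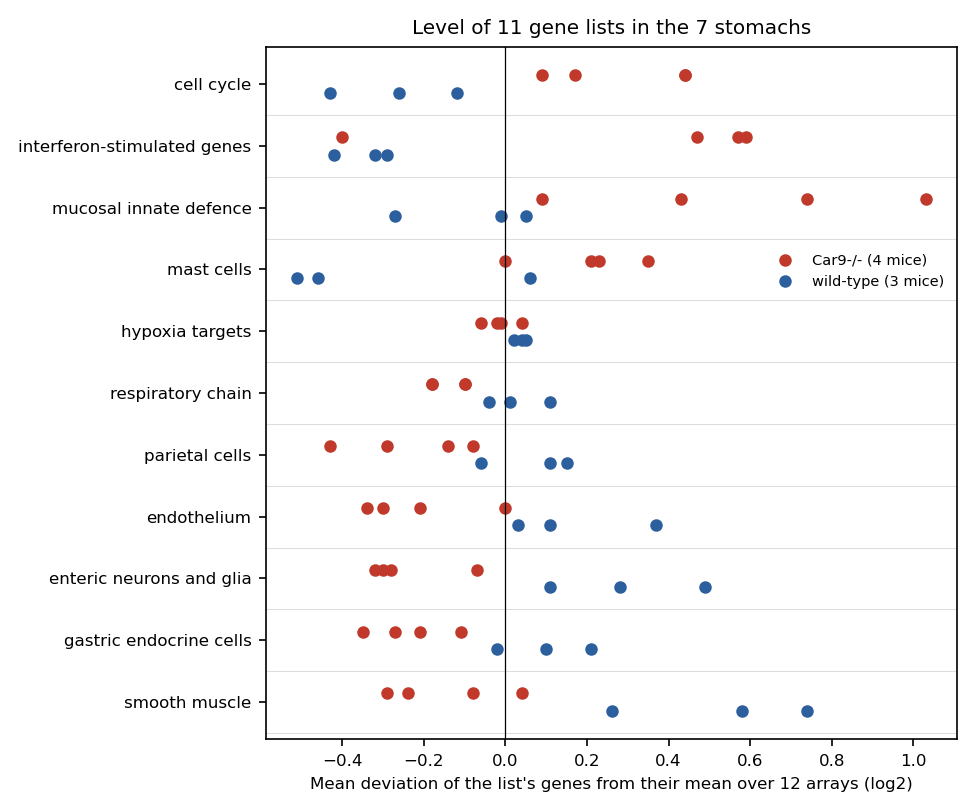
Mean deviation (log2) of the genes of 11 lists from their mean over 12 arrays, in each of the 4 Car9-/- mice (red, upper) and 3 wild-type mice (blue, lower). The genotypes are apart for cell cycle (at least 0.09 against at most -0.12), for smooth muscle (at most 0.04 against at least 0.26) and for enteric neurons and glia. With smaller gaps they are also apart for mucosal innate defence, parietal cells, endothelium, gastric endocrine cells and the respiratory chain. They overlap for mast cells and hypoxia targets. In the interferon list Car9-/- mouse 5 lies at -0.40, among the wild-type mice.

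In the gastric glands, pit and chief cell genes had medians near 0.26 and -0.26 and parietal and endocrine genes mostly negative differences, with no gene past the test. Of 15 parietal cell genes, 14 were negative (median -0.24) and 5 were lower at an unadjusted p under 0.05, where 8.7% of all probes were. The proton pump genes Atp4a and Atp4b, whose probes are near the top of the range, differed by -0.17 and -0.05. Of the 7 chief cell genes, 2 were lower at that level, with the pepsinogen genes Pgc and Pga5 at -0.02 and 0.04. Of the 10 pit cell genes, 3 were higher at it (7.64% of all probes), with the mucin gene Muc5ac at 0.39 (adjusted p = 0.268) and Gkn1 at 0.02. The other 3 probes of Muc5ac lay between -0.14 and 1.18 and did not pass. The dimmer probe at 1.18 differed by 1.98 without Car9-/- mouse 5 and then passed (adjusted p = 0.00245 in limma). Gastric endocrine genes had a median of -0.62 over 9 genes, 5 of them lower at an unadjusted p under 0.05 (8.7% of all probes). With Car9-/- mouse 5 left out, 1 higher and 2 lower parietal genes, 2 lower chief, 1 higher pit and 1 lower endocrine gene passed, where 3.66% of all probes were higher and 3.11% lower. Ghrl, the ghrelin gene, differed by -0.19, and Sst, the somatostatin gene, by -0.88 (standard error 0.30, adjusted p = 0.208).

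With all 7 mice, transport and carbonic anhydrase genes passed singly. Of 15 acid and bicarbonate transporter genes, Slc9a3 alone passed, higher (0.111% of all probes), and the median was -0.17. Of 7 other carbonic anhydrase genes tested, Car4 alone passed, lower (0.0553% of all probes), with a median of -0.15. Car2, the abundant cytosolic form, gave 14.46, 14.22, 14.38 and 12.46 in Car9-/- mice and 13.42, 13.50 and 13.66 in wild-type mice. Car9-/- mouse 5 was the lowest of the 7 and the other Car9-/- mice were the highest, and the difference was 0.35 (standard error 0.46). Omitting that mouse it was 0.83 and passed (adjusted p = 0.015 in limma), so that Car2 was then called higher beside Car4 lower. A second Car2 probe differed by 0.049. Of the transporter genes, Slc9a3 (higher) and the anion transporter genes Slc4a2, Slc26a6 and Slc26a9 (lower) passed without that mouse. In that fit 3.66% of all probes were higher and 3.11% lower. The 19 hypoxia target genes had a median of -0.06, with Vegfa, the vascular growth factor, at -0.07 and the lactate dehydrogenase gene Ldha at 0.16. In limma none of these passed after adjustment, and at an unadjusted p under 0.05, 1 was higher and 2 lower (7.64% and 8.7% of all probes).

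Interferon-stimulated genes split the Car9-/- mice. Isg15, a ubiquitin-like protein induced by interferon, gave 10.31, 10.37, 10.23 and 7.12 in Car9-/- mice and 8.32, 7.93 and 8.07 in wild-type mice. Mice 2 to 4 were above all wild-type mice and mouse 5 below all of them. On the other 5 arrays Isg15 was at 10.51 in Car9-/- mouse 1 and 8.36 in mouse 6. Wild-type mice 4 to 6 were at 8.04 to 8.72. Oas1g, of a family of near-identical copies, gave 11.03, 10.97, 10.90 and 9.40 in Car9-/- mice and 8.97, 9.06 and 9.67 in wild-type mice. Of 14 tested genes 13 were positive (median 0.52), 9 higher with an unadjusted p under 0.05 (7.64% of all probes) and none past adjustment. Without Car9-/- mouse 5, 11 of 14 passed, all higher (3.66% of all probes), and Isg15 differed by 2.20 (adjusted p = 0.00111). Of 11 mucosal defence genes, 10 were positive (median 0.64), and of 8 mast cell genes 7 (median 0.52), and no gene of either list passed. Of the mucosal defence genes, 4 passed, all higher, when Car9-/- mouse 5 was left out, and 0 of the mast cell genes did. In the 7 mice, 5 mast cell genes had an unadjusted p under 0.05 in the higher direction and 1 in the lower. Mcpt1, a mast cell protease, was at 6.91 to 7.34 in Car9-/- mice and 6.36 to 6.70 in wild-type mice.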

How the data were processed

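The authors hybridized stomach RNA of 12 mice to Illumina Mouse-6 arrays and deposited the BeadStudio signal intensity of each probe, without normalization or background subtraction, with its detection p-value. The authors also deposited quantile-normalized log2 values made in Chipster. The genome build of the probes is not given in the sources used here.

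Here the intensities were log2-transformed and quantile-normalized over 12 arrays, within 0.0224 of the authors' log2 values. Probes with a detection p under 0.01 on 3 or more of the 7 arrays were tested, 19902 in all, on the 7 arrays alone by limma 3.58.1 (lmFit, then eBayes; R 4.3.3) and Benjamini-Hochberg adjustment (threshold 0.05). An exact permutation of 4 against 3 mice cannot go below p = 0.0571, so no single-value test was used. The same probes were fitted in the other 5 arrays and in an interaction of genotype and set. Precision is limited by the number of mice, and p-values measure only the spread between these samples. The script was tested on simulated data.

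Gene symbols came from the platform table, updated to current RefSeq symbols (1 symbol for 32794 probes, several for 55), with 28 probes named from the study's gene list. A gene of a list was represented by its brightest tested probe. The members and lists were chosen with earlier results of these data known. The text names Car9, the 10 named probes with the largest difference in each direction among those passing (without squamous and exocrine pancreas genes), up to 4 passing genes or else the first 2 of each list, genes of the study's tables and the nearest neighbours of Car9. Tpm3, Gda, Pclaf, Ctsh, Timp1, Agmo, Sectm1b, Cxcl17, Krt14, Amy2a5, Try4, Aldh1a1, Slc4a2, Slc26a6, Slc26a9, Car2 and the probe without a name were chosen after their values were seen. The alternatives were other normalizations and filters, covariates for sex, age and tissue levels, array weights, the replicate number as a block, other probes of a gene, an intensity trend and each mouse left out.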

Additional observations from a re-analysis of the deposited data

Results flagged for a closer look

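In several genes and lists 1 of the 4 Car9-/- mice lay far from the other 3. For normally spread values, chance alone flags about 1 in 20 groups of this size. The same rule flagged 8.32% of the 19902 tested probes. It was run here on 66 named probes and 39 lists. Car9-/- mouse 5 was far lower for Isg15 (7.12, others 10.23 to 10.37), Oas1g (9.40, others 10.90 to 11.03), a dimmer Muc5ac probe (7.77, others 10.85 to 11.09) and the dimmer Car9 probe (7.46, others 8.11 to 8.19), and higher for Blm (10.14, others 7.81 to 8.16). Its level of interferon-stimulated genes was -0.40, with the others at 0.47 to 0.59. Car9-/- mice 6 and 1, on the other 5 arrays, also differed: 8.36 and 10.51 for Isg15, 9.75 and 11.07 for Oas1g. For Blm they were at 9.88 and 7.98, and their interferon levels were -0.19 and 0.61. These 2 mice were alike at that Muc5ac probe (10.88 and 10.87) and at the dimmer Car9 probe (8.21 and 8.29). Car9-/- mouse 4 was higher for Gda (9.35, others 9.04 to 9.07) and Il1rl1 (10.30, others 8.98 to 9.18). Car9-/- mouse 2 was lower for Tm4sf5 (11.34, others 11.77 to 11.82) and Bpifb1 (12.50, others 12.97 to 13.01), and its level of liver genes was 0.69, with the others at -0.49 to -0.35. Car9-/- mouse 3 had an enteric neuron and glia level of -0.07, with the others at -0.32 to -0.28.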

How the results depend on the processing

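With 7 mice the count of probes that pass is small and moves with most settings, while the signs of the 33 probes did not. All 33 kept their direction in the 22 alternative fits. Higher and lower probes, 22 and 11 with the reported fit, were 22 and 7 with neqc at an offset of 16, 7 and 2 with median scaling, 2 and 2 with sex as covariate, 1 and 0 with sex and age, 15 and 6 with the squamous level, 1 and 0 with the exocrine pancreas level, 478 and 566 with array weights, and 1111 and 1091 over all 12 arrays. Leaving out 1 mouse gave 1 to 729 higher and 1 to 619 lower probes. With the replicate block there was 1 higher and 0 lower probe, but the 2 shared replicate numbers name no litter or batch, and deviations of same-numbered mice correlated at -0.376 and -0.382. The Car9 difference kept its sign throughout and passed in 19 of 22 settings, with -1.64 for sex and age (adjusted p = 0.115), -1.95 for the exocrine pancreas level (0.296), -1.79 for the replicate block (0.498) and -1.32 at the dimmer probe (0.0512). Without 1 mouse it was -1.77 to -1.64. In the other 5 arrays, 7 higher and 1 lower probe became 16 higher with median scaling, 13 and 3 with all probes tested, 11 higher with an intensity trend, and 4 to 87 higher and 0 to 112 lower without 1 mouse (the highest without Car9-/- mouse 6). The interaction count of 0 became 0 to 7 without 1 mouse. Signs turned at other probes for Tpm3 (-0.051), Pkp4 (-0.071 and -0.28) and Muc5ac (-0.14), with the exocrine pancreas level for Gm12888 (0.068) and Chia1 (0.60), with sex and age for Adipoq (0.10), Cfd (0.46) and Car3 (0.10), with the adipose level for Adipoq (0.08), Cfd (0.26), Car3 (0.053) and Il33 (-0.065), without wild-type mouse 3 for Adipoq (0.57, range without 1 mouse from -0.80), Cfd (1.04, from -1.30), Car3 (0.46, from -0.67) and Il33 (-0.37, up to 0.63), and over 12 arrays for Cxcl13 (-0.73). Over the named genes and lists, 1776 other values kept direction and side of the threshold, 368 lost and 72 gained a call, 85 moved by more than the spread and 19 turned. Quantile normalization over the 7 arrays alone was not run for the interaction, which needs all 12. Cym, Slc9a3 and Hamp lie near or under background in wild-type mice, which limits their fold. The cause of these changes was not tested.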

Other observations

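Genes of mucous neck cells and metaplasia, circadian genes and lymphocyte genes are given here by their values, and at an adjusted p under 0.05 from limma none of them passed with all 7 mice. Of 12 tested mucous neck and metaplasia genes, 10 had a positive difference, with 4 higher and 1 lower at an unadjusted p under 0.05 (7.64% and 8.7% of all tested probes). Of the 12, 2 passed without Car9-/- mouse 5, both higher (3.66% of all probes), Clu and Aqp5, a water channel. The neck mucin gene Muc6 was at 8.94 to 9.62 in Car9-/- mice and 8.11 to 8.60 in wild-type mice, while Tff2, a trefoil peptide of the same cells, differed by -0.032. Clu, a secreted chaperone chosen after its values were seen, was at 14.85 to 15.11 in Car9-/- mice and 14.12 to 14.43 in wild-type mice (adjusted p = 0.0699 from limma).

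Of 13 circadian genes, 4 were lower (8.7% of all tested probes) and 3 higher (7.64%) at an unadjusted p under 0.05. Without Car9-/- mouse 5, 1 passed, lower (Nr1d1, a clock repressor), where 3.11% of all probes were lower. Dbp, a clock output factor, gave 9.75, 10.25, 8.27 and 10.28 in Car9-/- mice and 9.82, 11.78 and 11.98 in wild-type mice, so the genotypes overlapped through wild-type mouse 1. The clock gene Per1 differed by -0.29 (adjusted p = 0.295 from limma). All 5 tested T and NK cell genes had positive differences in the 7 arrays (median 0.47), against a median of -0.17 in the other 5. For 6 B and plasma cell genes the medians were 0.58 in the 7 and -0.44 in the other 5, where the B and plasma cell level was 0.11 and 0.28 in Car9-/- mice and 1.14, -0.31 and 1.4 in wild-type mice. The difference between the 2 sets was not tested for these lists.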
